A study of Mus musculus with 16 samples.

Results

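The 39 genes described here copy DNA, build and pull apart chromosomes, or govern the decision to divide. They were taken by symbol from the gene count table of 43430 genes, and fall into 20 DNA replication genes, 15 mitosis genes and 4 regulators of G1, the phase before DNA synthesis. All 39 were found, and 37 passed the filter on low counts that kept 11004 genes for testing. Cdc6, which loads the replicative helicase at origins, had 97 counts over all libraries, and Chek1, a kinase that guards replication forks, had 69, so neither was tested. The cells were bone marrow-derived macrophages, phagocytes grown from the marrow of C57BL/6J mice for 6 days with macrophage colony-stimulating factor (20 ng/mL). There were 4 groups of 4 libraries. The first group was kept in medium without serine and given lipopolysaccharide (LPS, 100 ng/mL), a glycolipid from the surface of Gram-negative bacteria. The others had LPS in complete medium, medium without serine and no LPS, and complete medium with no LPS. RNA was taken 4 h after LPS, the labels name no altered gene, and the age and number of the mice are not stated in the labels. Sex-linked counts, given below, show that replicate 1 came from other mice than the other replicates. Nothing says whether those came from separate animals, so p-values measure only the spread between these libraries.

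Replication begins when the origin recognition complex, Cdc6 and Cdt1 load the ring of Mcm2 to Mcm7, which becomes an active helicase once Cdc45 and the GINS complex join it. E2F transcription factors switch on most of these genes at the end of G1, and the genes of mitosis follow later, largely through the MuvB complexes that read the CHR element. Macrophages in culture divide in response to macrophage colony-stimulating factor, and in mouse bone marrow-derived macrophages LPS is known to stop that division before DNA synthesis.

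The promoters of 5 members are shown because they carry the sequence elements that set replication and mitosis genes apart. Each is the RefSeq window of 250 bases before and 50 bases after the annotated start on GRCm38.p6, read 5′ to 3′ on the gene's strand. Mcm3 lies at chr1:20820263-20820562 (minus strand), Cdt1 at chr8:122567765-122568064 (plus), Cdk1 at chr10:69352863-69353162 (minus), Aurka at chr2:172370521-172370820 (minus) and Mki67 at chr7:135716330-135716629 (minus). Capitals mark matches to the E2F motif, searched as TTTGGCGC, TTTGGCGG, TTTCGCGC, TTTCGCGG, TTTCCCGC, TTTCCCGG, TTTGCCGC and TTTGCCGG, and to the CHR, searched as TTTGAA, on both strands.
Mcm3: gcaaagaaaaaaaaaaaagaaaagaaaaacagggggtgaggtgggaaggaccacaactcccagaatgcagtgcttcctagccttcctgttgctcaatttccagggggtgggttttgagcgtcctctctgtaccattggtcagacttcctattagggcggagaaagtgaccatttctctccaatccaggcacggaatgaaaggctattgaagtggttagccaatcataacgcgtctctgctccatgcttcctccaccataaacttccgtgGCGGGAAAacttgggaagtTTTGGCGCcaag
Cdt1: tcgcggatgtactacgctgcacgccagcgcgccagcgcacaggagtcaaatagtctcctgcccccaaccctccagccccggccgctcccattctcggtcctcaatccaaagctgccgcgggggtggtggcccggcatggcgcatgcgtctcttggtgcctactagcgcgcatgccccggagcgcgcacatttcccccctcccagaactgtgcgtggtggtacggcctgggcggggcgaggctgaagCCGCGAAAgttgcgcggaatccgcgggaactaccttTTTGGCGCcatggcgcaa
Cdk1: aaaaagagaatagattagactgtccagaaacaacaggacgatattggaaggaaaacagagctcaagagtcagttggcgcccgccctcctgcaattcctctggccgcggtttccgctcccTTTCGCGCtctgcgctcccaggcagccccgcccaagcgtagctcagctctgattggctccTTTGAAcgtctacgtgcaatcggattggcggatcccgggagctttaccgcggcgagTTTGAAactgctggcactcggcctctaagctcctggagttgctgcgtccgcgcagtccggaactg
Aurka: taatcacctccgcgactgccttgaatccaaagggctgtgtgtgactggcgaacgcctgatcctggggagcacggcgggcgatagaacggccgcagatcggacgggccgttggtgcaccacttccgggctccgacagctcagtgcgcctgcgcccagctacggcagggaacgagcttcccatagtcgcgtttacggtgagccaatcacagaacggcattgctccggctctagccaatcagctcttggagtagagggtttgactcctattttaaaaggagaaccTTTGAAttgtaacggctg
Mki67: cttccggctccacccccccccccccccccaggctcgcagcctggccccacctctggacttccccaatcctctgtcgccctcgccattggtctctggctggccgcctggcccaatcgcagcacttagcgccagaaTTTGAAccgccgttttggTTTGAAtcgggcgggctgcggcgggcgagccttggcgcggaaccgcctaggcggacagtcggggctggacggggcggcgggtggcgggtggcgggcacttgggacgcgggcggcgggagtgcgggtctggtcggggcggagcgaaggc

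Mcm3 and Cdt1 each held 2 E2F matches and no CHR. In Cdt1 the first lay across the start site, its first base at -4 with the start site counted as 0. Aurka held 1 CHR, at 32, and Mki67 held 2, at -116 and -98, and neither held an E2F match. Cdk1 held both kinds, an E2F match at -131 and CHRs at -71 and -15. Of the 39 members, 32 had a window in the RefSeq table. E2F matches were present in 10 of 18 windows of 16 replication genes (55.6%), in 2 of 13 windows of mitosis genes (15.4%) and in 4.51% of the 32851 windows of all genes. CHR matches ran the other way, in 2 of 18 replication windows (11.1%), 9 of 13 mitosis windows (69.2%) and 17.9% of all windows. CCAAT, a short element common near start sites, was in 72.2% of replication windows, 92.3% of mitosis windows and 37.4% of all. These letters describe the windows and do not show that a factor binds there. Other genes of the same processes, listed below, had E2F matches in 29.3% of replication and 9.09% of mitosis windows, and CHR matches in 17.1% and 69.7%.

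**Figure D1:**
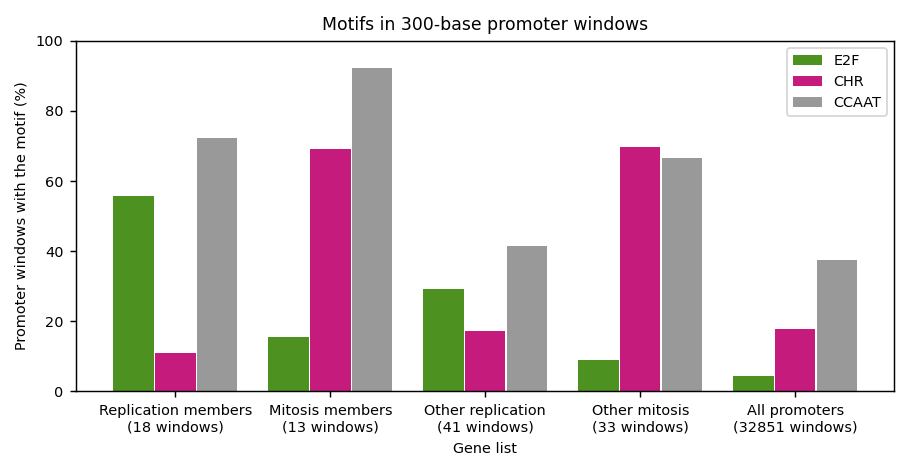
Share of 300-base promoter windows (vertical axis, percent) holding an E2F, CHR or CCAAT match, for each gene list (horizontal axis, with its number of windows). The E2F bar is highest in replication members (55.6%) and the CHR bar is high in both mitosis lists (69.2% and 69.7%), against 4.51% and 17.9% of all promoters.

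Library totals ran from 6573849 to 7892215 counts in LPS-treated cells without serine, from 6240112 to 8092528 with LPS and serine, from 2871477 to 10043362 in untreated cells without serine and from 5760734 to 7845261 in untreated cells with serine. Replicate 4 of the untreated cells without serine stood apart, with the lowest total, 12900 detected genes and 23.1% of its counts in 20 genes. In replicate 1 of all 4 groups Xist was at 0 counts and Y-linked genes at 1214 to 2420, while in the other 12 libraries Xist was at 351 to 1477 and Y-linked genes at 1 to 16, so replicate 1 was male, and sex and replicate 1 cannot be told apart. All 10 macrophage markers were detected in every group, at 17120 to 29305 summed CPM (counts scaled by library size). Summed markers of myeloid progenitors, immature marrow cells that divide, were 0.974 to 3.50 CPM in LPS-treated cells without serine and 0.847 to 2.38 with serine, with 1 and 3 of 7 markers at 0. They were 2.70 to 7.17 CPM in untreated cells without serine and 2.37 to 6.26 with serine, with none at 0. The largest part was Kit, at means of 1.04 and 0.815 CPM with LPS (without and with serine), against 3.09 and 2.48 untreated. Cd34 averaged 0.568 and 0.504 CPM with LPS, against 0.990 and 1.13 untreated. No other progenitor marker averaged above 0.409 CPM, and Prtn3 in serine medium was higher with LPS (0.266 against 0.199). Erythroid markers summed to 77.5 to 148 and 70.0 to 137 CPM with LPS (without and with serine), against 99.2 to 234 and 92.2 to 286 CPM untreated. Nearly all of this was the transferrin receptor Tfrc, which other cells also make (means of 114 and 107 CPM with LPS, against 161 and 189 untreated), with the haemoglobin genes at or near 0. Stromal markers summed to 14.8 to 39.2 and 22.2 to 44.7 CPM with LPS, against 1.01 to 20.5 and 1.53 to 18.1 CPM untreated. Of these Pdgfrb averaged 15.7 and 22.1 CPM with LPS, against 1.01 and 1.11 untreated, while the collagen gene Col1a1 averaged 3.86 and 5.70 CPM with LPS, against 3.77 and 4.11 untreated. Dendritic cell markers summed to 11.9 to 17.0 and 16.6 to 22 CPM with LPS, against 4.87 to 5.84 and 2.37 to 6.37 untreated, without overlap. Neutrophil markers followed replicate 1, at 98.8 to 156 CPM in its libraries and 21.7 to 49.3 in the other 12. The part of these cell types in the results below was not tested, and in RNA from whole cultures fewer dividing cells cannot be told apart from less RNA per cell.

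Levels of the members spanned a wide range. Per kilobase (RPKM, CPM divided by gene length), the sliding clamp Pcna, the licensing factor Cdt1 and the helicase subunit Mcm6 were the 3 highest of 39 in each group. Pcna averaged 36.8 ± 3.00 RPKM in LPS-treated cells without serine, 40.1 ± 3.97 with LPS and serine, 37.8 ± 6.35 untreated without serine and 38.8 ± 5.05 untreated with serine (SD, n = 4 each). Cdt1 averaged 29.2 ± 7.21, 16.8 ± 5.42, 40.9 ± 4.22 and 34.7 ± 4.63 RPKM in the same order, and Mcm6 13.1 ± 2.86, 13.1 ± 3.00, 14.7 ± 1.55 and 16.9 ± 0.887. Pcna and Cdt1 did not differ beyond their spread in either untreated group. Mki67, the fourth in both LPS groups, was at 9.90 ± 4.56 RPKM without serine and 10.2 ± 5.21 RPKM with serine, against 2.76 and 2.93 RPKM in untreated cells without and with serine. Most mitosis genes were far lower: Aurka, Bub1, Ccnb1, Plk1, Birc5 and Cdc20 stayed under 1 RPKM in each group mean, where single counts move a value.

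**Figure D2:**
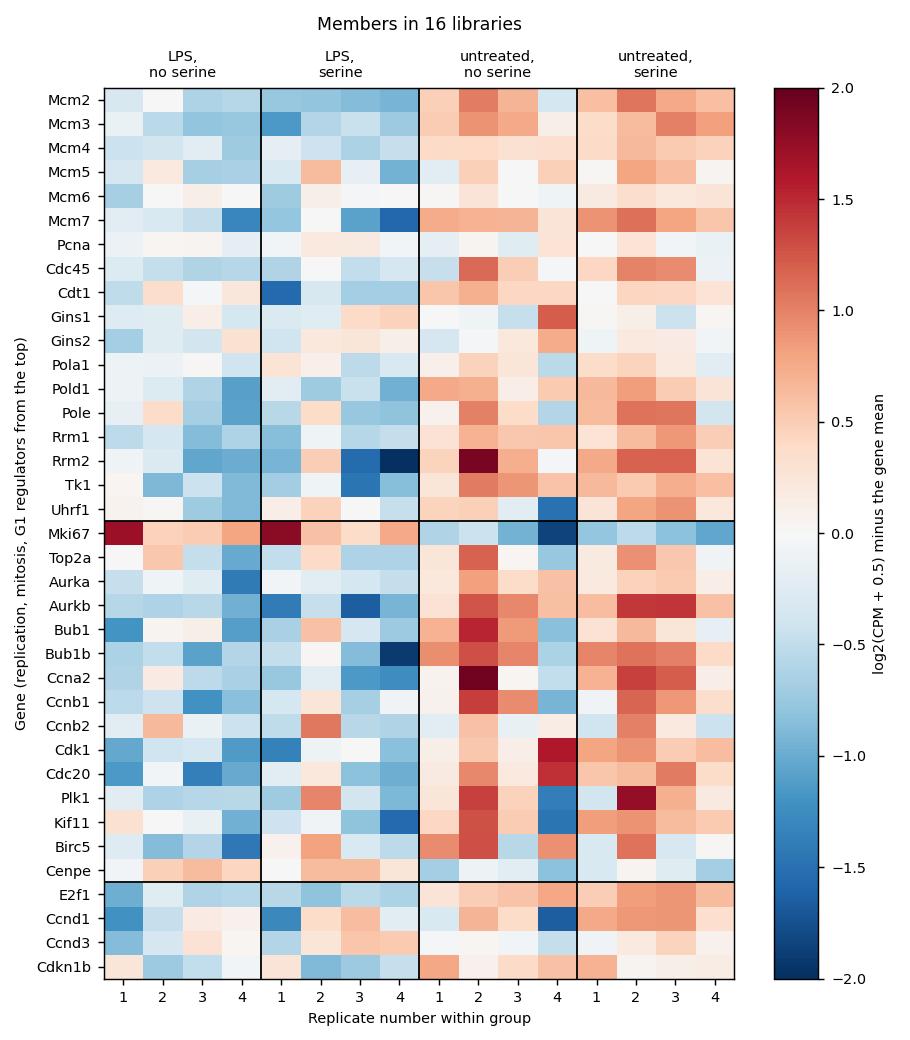
Level of the 37 tested members (rows, replication, mitosis and G1 regulators from the top) in 16 libraries (columns, by group and replicate number), as log2(CPM + 0.5) minus the gene's mean. Most rows are blue in the LPS libraries and red in the untreated ones, Mki67 and Cenpe are the reverse, and replicate 2 is often the reddest column of its group.

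Most called members were lower with LPS in either medium. In serine medium 19 of 37 were lower and 2 higher (edgeR quasi-likelihood test, adjusted p under 0.05), while 28.2% of all tested genes were lower and 27.6% higher. Without serine 20 of 37 were lower and 2 higher, beside 29.7% and 27.1% of all genes. The same 16 members were lower in both media, and 12 were called in neither. With the replicate block 21 were lower in both and 8 called in neither. The block gave 24 lower and 2 higher in each medium. Of all genes it called 30.7% lower and 29.7% higher with serine, and 31.6% and 29.4% without. The share of all tested genes lower in both media, or called in neither, was not counted. The share lower in both cannot exceed 28.2%, or 30.7% with the block. The median log2 fold change of the 37 was -1.05 in serine medium and -1.0 without serine, beside -0.03 and -0.12 over all tested genes. These comparisons share no library. In serine medium 29 of 37 members were lower in each of the 4 same-numbered pairs and 2 were higher in each, and without serine 22 and 2. The share of all tested genes that did so was not counted. It is at least the share whose groups did not overlap, 30.9% lower and 30.7% higher with serine and 22.4% and 25.3% without. Several members passed the filter on low counts through their untreated libraries, so these counts describe the tested members and support nothing further.

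**Figure D3:**
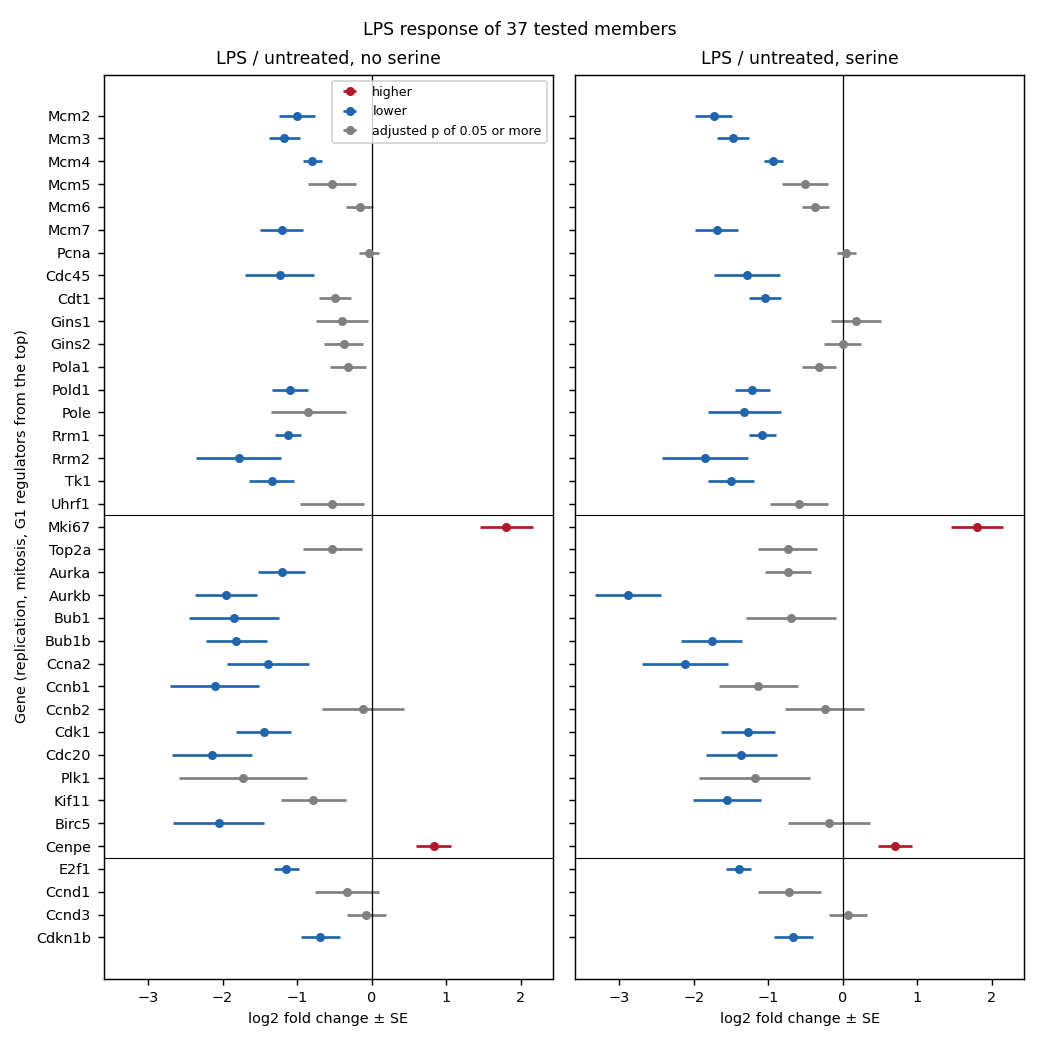
LPS response of the 37 tested members as log2 fold change ± SE (LPS over untreated, horizontal axis), without serine on the left and with serine on the right. Blue points are lower, red points higher and grey points had an adjusted p of 0.05 or more. Red marks Mki67 and Cenpe in both panels.

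Among replication genes, 11 of 18 fell in serine medium and 9 of 18 without serine, and none rose. Mcm2, a subunit of the helicase ring (ENSMUSG00000002870), was at 3.72, 3.63, 3.39 and 3.23 CPM in replicates 1 to 4 of LPS-treated cells with serine, against 10.3, 14.4, 11.6 and 10.3 CPM untreated with serine. No value of one group reached the other, and the log2 fold change was -1.73 ± 0.25 (SE, adjusted p = 1.54e-05). Without serine it was at 5.18, 6.59, 4.11 and 4.29 CPM with LPS, against 9.40, 13.9, 10.9 and 5.06 CPM untreated. Here the low untreated value of replicate 4, the shallow library, fell among the LPS values, and the fold change was -1.0 ± 0.24 (adjusted p = 0.00198).

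The helicase subunits did not move as a block. Mcm3 fell to 11.9 ± 2.74 CPM with LPS without serine, against 26.7 ± 6.15 untreated, and to 10.5 ± 2.17 with LPS and serine, against 29.2 ± 5.47 untreated (SD, n = 4 each). Mcm7 fell by 1.21 ± 0.29 (log2, adjusted p = 0.00193) without serine and by 1.70 ± 0.29 (0.000101) with serine. Its annotated exons overlap 2 microRNA genes and, on the opposite strand, Ap4m1 (7.25% of exon bases) and Cops6 (1.45%). Mcm4 fell by 0.80 ± 0.13 and 0.94 ± 0.13 (adjusted p = 6.1e-05 and 9.3e-06). Mcm5 and Mcm6 were not called. Mcm5 averaged 6.77 ± 2.19 CPM with LPS against 10.0 ± 2.50 untreated without serine, and 8.09 ± 3.98 against 11.6 ± 3.29 with serine, and the groups overlapped. Mcm6 averaged 109 ± 23.8 CPM with LPS against 122 ± 12.9 untreated without serine, and 109 ± 25.0 against 140 ± 7.38 with serine, where the groups did not overlap. With a block for the replicate number Mcm5 and Mcm6 were called lower in serine medium (-0.54 ± 0.22, adjusted p = 0.0441, and -0.40 ± 0.14, adjusted p = 0.0243) but not without serine.

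Genes that supply deoxynucleotides fell in both media. Rrm1, the large subunit of ribonucleotide reductase, was at 12.9, 14.6, 10.1 and 12.1 CPM with LPS without serine, against 23.0, 30.7, 27.4 and 27.7 untreated, and at 10.1, 17.6, 12.5 and 13.3 with LPS and serine, against 22.8, 29.4, 34.4 and 26.6. All 8 LPS values lay below all 8 untreated values, and the fold changes were -1.13 ± 0.18 (adjusted p = 4.88e-05) and -1.08 ± 0.18 (6.09e-05). Its small subunit Rrm2, which is made mainly in S phase, fell by 1.78 ± 0.57 (0.0137) and 1.85 ± 0.58 (0.012). Its calls changed with the libraries left out. Without untreated replicate 2 its fold change in medium lacking serine was -1.18 (adjusted p = 0.0828), and without LPS replicate 2 in serine medium it was -2.97 (0.00067). With all libraries of a replicate number left out, Rrm2 was not called without number 3 in either medium (-1.70 and 0.0642 lacking serine, -1.47 and 0.113 with serine) or without number 1 in serine medium (-1.81 and 0.0557). Thymidine kinase Tk1 fell to 2.48 ± 0.976 CPM without serine, against 6.37 ± 1.61, and to 2.09 ± 1.01 with serine, against 5.96 ± 0.371.

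The polymerases and the proteins that start and lengthen forks were split. Pold1, the catalytic subunit of the polymerase of the lagging strand, fell by 1.10 ± 0.24 without serine and 1.21 ± 0.24 with serine (adjusted p = 0.00103 and 0.000396). Pole, its counterpart on the leading strand, fell by 1.33 ± 0.49 in serine medium (0.0294) and was at -0.85 ± 0.50 without serine (0.158; with the replicate block -0.75 ± 0.28 and 0.0348). Leaving out any of 5 single libraries in serine medium ended the call of Pole (adjusted p = 0.0757 to 0.0832). Cdc45, which completes the helicase, was called lower in both media, at -1.23 ± 0.46 (0.0323) and -1.29 ± 0.44 (0.0198), close to the threshold. Leaving out any of 4 libraries ended the call in serine medium (-1.22 to -1.11, adjusted p = 0.0509 to 0.062), and any of 5 in medium lacking serine. The value there was -0.71 (0.192) without untreated replicate 2 and -1.23 to -1.17 (0.0553 to 0.0715) without one of the other four. Pola1, which primes DNA synthesis, averaged 5.46 ± 0.706 CPM with LPS against 6.60 ± 1.89 untreated without serine, and 5.73 ± 1.55 against 7.17 ± 1.47 with serine, and was not called. Uhrf1, which carries DNA methylation through replication, was not called either, at 1.40 ± 0.631 against 1.84 ± 1.15 and 1.98 ± 0.640 against 3.01 ± 0.856 CPM.

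Pcna, the most abundant member, did not show the pattern. It was at 158, 176, 178 and 150 CPM with LPS without serine, against 151, 179, 145 and 207 untreated, and at 165, 197, 195 and 165 with LPS and serine, against 170, 208, 165 and 156. LPS and untreated values were interleaved, with fold changes of -0.04 ± 0.13 and 0.05 ± 0.13 (adjusted p = 0.815 and 0.799). The annotation holds 2 processed pseudogenes of Pcna, with which reads may be shared. The GINS subunits Gins1 and Gins2 were not called in either medium, their group means lying between 2.95 and 4.31 CPM and between 5.73 and 7.75 CPM, and 67.3% of the exon bases of Gins2 are shared with Gse1 on the opposite strand, which the library kit does not tell apart.

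Cdt1 fell in serine medium to 20.8, 49.6, 38.4 and 38.3 CPM with LPS, against 61.9, 84.1, 82.7 and 75.0 untreated. The groups did not overlap, and the fold change was -1.05 ± 0.22 (adjusted p = 0.000673). Without serine it was at 43.2, 79.2, 60.7 and 72.5 CPM with LPS, against 91.0, 102, 82.6 and 82.6 untreated. These groups did not overlap either, but the fold change of -0.49 ± 0.22 missed the threshold (0.0637), and passed it with the replicate block (-0.53 ± 0.16, 0.00972). The untested Cdc6 had 7 counts with LPS against 37 untreated without serine and 6 against 47 with serine, and its CPM did not overlap between LPS and untreated libraries in either medium. Chek1 had 20 against 15 counts and 13 against 21, and overlapped. Over the tested genes of the series 25.3% were higher and 22.4% lower without overlap in medium lacking serine, and 30.7% and 30.9% in serine medium.

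Mitosis genes split into a larger group that fell and 2 that rose. In serine medium 6 of 15 were lower, and without serine 9 of 15, with Mki67 and Cenpe higher in both. Aurkb, the kinase of the chromosomal passenger complex (ENSMUSG00000020897), had the lowest fold change of the members in serine medium. It was at 0.298, 1.04, 0.169 and 0.605 CPM with LPS and serine, 12 counts in all, against 2.73, 5.12, 5.15 and 2.64 CPM and 137 counts untreated. The groups did not overlap, and Aurkb was 7.38-fold lower (-2.88 ± 0.44, adjusted p = 2.99e-05). Without serine it had 0.913, 0.867, 0.934 and 0.585 CPM with LPS, against 2.07, 4.55, 3.59 and 2.70 untreated, and was 3.87-fold lower (-1.95 ± 0.42, 0.000769). Its partner Birc5, the survivin subunit of the same complex, differed from it: without serine it was at 1.07, 0.520, 0.748 and 0.195 CPM with LPS against 3.11, 4.06, 0.769 and 3.04 untreated and fell by 2.05 ± 0.61 (0.00909), with untreated replicate 3 inside the LPS range. In serine medium Birc5 was at 1.49, 2.76, 1.02 and 0.807 CPM with LPS against 1.01, 3.48, 1.01 and 1.39 untreated, with overlapping groups and no call (0.797).

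The kinase Cdk1, which drives entry into mitosis, fell by 1.45 ± 0.37 without serine and 1.28 ± 0.36 with serine (adjusted p = 0.00332 and 0.00603), and its groups did not overlap in either medium. Its cyclin partners were uneven. Ccna2, which acts in S phase and G2, shares 12.5% of its exon bases with Exosc9 on the opposite strand. It had 35 counts with LPS against 144 untreated without serine and 24 against 159 with serine. It fell by 2.12 ± 0.58 in serine medium (0.005), without overlap. Its call without serine (-1.39 ± 0.55, 0.0402) rested on untreated replicate 2 at 9.40 CPM, and without that library the value was -0.40 (0.433). Leaving out any of replicates 1, 3 and 4 with LPS also ended it (0.0851 to 0.0937), as did fitting without the filter on low counts (0.0786) or on these groups alone (0.0916). Ccnb1 fell by 2.10 ± 0.60 without serine (0.00664, or 0.0665 without replicate number 3), and in serine medium it was at -1.14 ± 0.53 (0.08, and 0.029 with the replicate block). Ccnb2 averaged 1.53 ± 0.731 CPM with LPS against 1.66 ± 0.583 untreated without serine, and 1.54 ± 1.39 against 1.81 ± 1.17 with serine, without a call. The annotation lists a pseudogene for each of these B cyclins.

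Bub1b, the BubR1 kinase of the checkpoint, fell by 1.82 ± 0.41 without serine and 1.76 ± 0.41 with serine (adjusted p = 0.00134 and 0.00145), with untreated replicate 4 without serine, at 1.69 CPM, inside the LPS range. Cdc20, the activator of the anaphase-promoting complex that it holds back, fell by 2.14 ± 0.53 and 1.37 ± 0.48 (0.00272 and 0.0218). The Cdc20 call in serine medium was lost without LPS replicate 3 or 4 or untreated replicate 3 (0.0629 to 0.0688), and without LPS replicate 2 its value in medium lacking serine was -2.95. Bub1 fell without serine by 1.85 ± 0.60 (0.0154), a call lost without LPS replicate 1 or untreated replicate 2 (0.0553 and 0.0663), and in serine medium it had 19 counts with LPS against 47 untreated, with overlapping groups (0.347). Aurka, the spindle pole kinase, fell without serine by 1.21 ± 0.32 (0.00383). In serine medium it was at -0.74 ± 0.31 (0.0501), below each untreated value in all LPS libraries, and was called with the replicate block (0.0329). Kif11, the motor that pushes spindle poles apart, fell by 1.56 ± 0.45 with serine (0.00777) and was at -0.78 ± 0.43 without it (0.134). Its call was lost without replicate number 3 (-1.51, 0.0626).

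Top2a, which untangles DNA, and Plk1, a kinase of mitotic entry and exit, were not called in either medium. Top2a had 11.1, 16.5, 7.85 and 5.26 CPM with LPS without serine, against 13.3, 25.9, 11.4 and 6.41 untreated, and 7.74, 14.7, 7.11 and 7.06 with LPS and serine, against 12.6, 21.5, 16.5 and 10.6. Values of different replicates overlapped, yet in all 8 same-numbered pairs the LPS value was the lower. With the replicate block Top2a was called lower in both media (-0.47 ± 0.18, adjusted p = 0.0375, without serine, and -0.77 ± 0.18, 0.00232, with serine). Plk1 had 10 counts with LPS against 52 untreated without serine and 18 against 63 with serine, and was called with the block without serine (-1.59 ± 0.57, 0.0284).

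Mki67, which encodes the Ki-67 protein used to stain dividing cells (ENSMUSG00000031004), rose. It was at 168, 70.4, 72.9 and 88.1 CPM with LPS without serine, against 33.4, 37.8, 26.3 and 13.8 untreated, and at 180, 77.2, 66.1 and 86.7 with LPS and serine, against 29.5, 35.2, 28.5 and 24.6. All 8 LPS values lay above all 8 untreated values, and replicate 1 stood highest in both LPS groups. Mki67 was 3.50-fold higher without serine (1.81 ± 0.35, adjusted p = 0.000345) and 3.48-fold higher with serine (1.80 ± 0.35, 0.000335). Cenpe, the kinetochore motor that carries chromosomes to the metaphase plate (ENSMUSG00000045328), rose less. It was at 7.76, 11.4, 12.9 and 11.1 CPM with LPS without serine, against 4.86, 7.52, 6.92 and 4.38 untreated, which do not overlap (0.83 ± 0.23, 0.00567). With serine it was at 8.04, 12.8, 12.9 and 9.68 CPM with LPS, against 6.47, 8.40, 6.79 and 4.87 untreated, where the LPS value of replicate 1 lay within the untreated range (0.70 ± 0.23, 0.0143). That call was lost without LPS replicate 3 (0.61, 0.0501) or untreated replicate 4 (0.58, 0.0507). The scaling of libraries matters for these genes. TMM factors were 0.781 to 0.861 in LPS libraries and 1.03 to 1.27 in untreated ones, and scaling by total counts instead moved the median of all genes to -0.64 with serine and -0.69 without. Under it Mki67 was still higher (1.22 without serine and 1.19 with serine), and Cenpe was no longer called (0.24 and 0.08, adjusted p = 0.378 and 0.758). Total-count scaling lowered the LPS value of every tested member, so it could not have turned a fall round and does not test the falls.

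**Figure D4:**
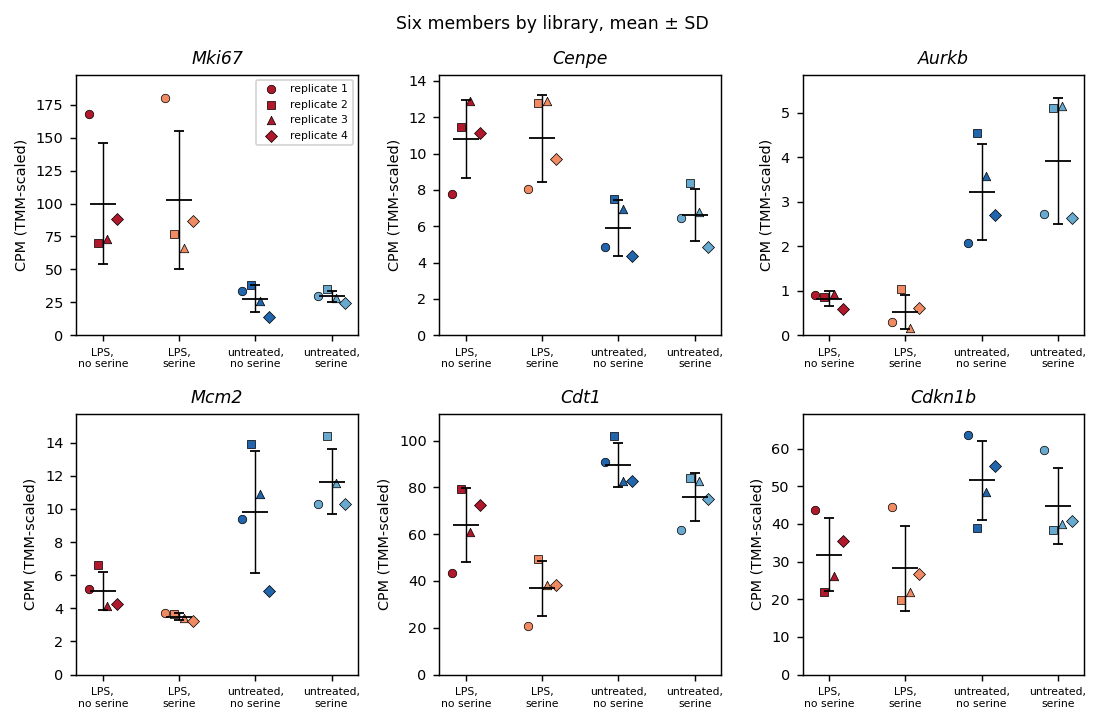
Levels of 6 members in each library (vertical axis, TMM-scaled CPM), by group (horizontal axis), with the shape of a point giving the replicate number and bars the mean ± SD of 4 libraries. Mki67 and Cenpe are higher with LPS, Mki67 most in replicate 1 (168 and 180 CPM), and Aurkb, Mcm2, Cdt1 and Cdkn1b lower.

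Of the 4 G1 regulators, 2 fell in both media. E2f1, an activator of replication genes, was at 5.78, 9.88, 7.66 and 7.80 CPM with LPS without serine, against 14.3, 16.8, 17.8 and 20.6 untreated, and at 7.89, 6.56, 7.96 and 7.46 with LPS and serine, against 16.8, 21.5, 22.1 and 18.5. No LPS value reached an untreated one (adjusted p = 2.44e-05 and 2.24e-06). Cdkn1b, which encodes the inhibitor p27 that holds cells in G1, also fell, by 0.69 ± 0.26 (0.0319) and 0.66 ± 0.26 (0.0386). Each Cdkn1b call was lost when any of 4 single libraries was left out (0.057 to 0.101 without serine and 0.0815 to 0.137 with serine), or when genes of low counts were kept (0.0701 and 0.0845), while the replicate block gave 0.000164 and 0.000171. The D cyclins were not called. Ccnd1, the cyclin induced by growth factors, averaged 15.8 ± 6.24 CPM with LPS against 19.1 ± 10.9 untreated without serine, and 19.4 ± 9.60 against 31.8 ± 5.33 with serine. Of the exon bases of Ccnd1, 23.4% are shared with LTO1 on the opposite strand. Ccnd3 averaged 12 ± 4.03 against 12.3 ± 1.97, and 16 ± 5.14 against 15.2 ± 2.37 CPM.

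Replication and mitosis genes were set side by side without a test of their difference. The median log2 fold change was -1.06 for 18 replication genes and -1.14 for 15 mitosis genes in serine medium, and -0.82 and -1.45 without serine. In same-numbered pairs without serine the medians were -0.48, -0.73, -0.72 and -0.75 for replication genes and -0.75, -1.32, -0.68 and -0.27 for mitosis genes in replicates 1 to 4. The mitosis median was the lower in replicates 1 and 2 and the higher in replicates 3 and 4. Replication genes summed to 421 ± 42.5 CPM with LPS without serine and 409 ± 59.9 with LPS and serine, against 539 ± 50.3 and 561 ± 53.5 untreated without and with serine (SD, n = 4 each). Mitosis genes summed to 136 ± 43.9 and 140 ± 48.8 CPM with LPS, against 90.1 ± 29.9 and 94.1 ± 20.6 untreated. Without Mki67 the mitosis sums were 36.4 ± 9.14 and 37 ± 13.2 CPM with LPS, against 62.3 ± 21.9 and 64.7 ± 16.5 untreated.

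Other genes of the same processes, which were not among the 39, also moved in both directions. Of 35 tested replication genes 17 were lower and 5 higher without serine, and 15 and 5 with serine, with medians of -0.74 and -0.70, while 29.7% of all tested genes were lower and 27.1% higher without serine and 28.2% and 27.6% with serine. The lowest were Gmnn, the geminin that blocks Cdt1, Pole2 and Chaf1a, at -3.58 ± 0.40, -2.65 ± 0.54 and -2.28 ± 0.50 without serine and -2.78 ± 0.38, -2.53 ± 0.46 and -2.18 ± 0.45 with serine. Gmnn was at 0.609, 2.25, 1.12 and 3.12 CPM with LPS without serine against 15.9, 16.1, 14.5 and 40.5 untreated. The highest were Timeless, a fork protection protein, at 4.42 ± 0.42 and 3.91 ± 0.40, Mcm10 at 1.82 ± 0.43 and 1.47 ± 0.40, and the clamp loader subunit Rfc3 at 1.20 ± 0.21 and 1.35 ± 0.21. Timeless had 700 counts with LPS against 51 untreated without serine and 711 against 71 with serine. Mcm10 was not called under total-count scaling in serine medium (0.86, adjusted p = 0.0726) or without replicate number 2 (1.14, 0.0512).

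Of 33 other mitosis genes 15 were lower and 3 higher without serine, and 17 and 5 with serine, with medians of -0.87 and -1.03, beside the same shares of all genes. Tpx2, which activates Aurora A on the spindle, rose by 1.90 ± 0.27 and 1.77 ± 0.27, to 26.9 to 40.4 CPM with LPS against 3.04 to 13.7 untreated without serine. Pttg1, the securin that holds sister chromatids together, rose by 1.68 ± 0.38 and 2.38 ± 0.39. Its untreated replicate 4 without serine was at 40.5 CPM beside 8.61 to 10.4 in the other three, and without that library the value was 2.39. Mad2l1 rose by 1.09 ± 0.25 without serine (0.52 under total-count scaling, adjusted p = 0.0791) and Cks2 by 1.29 ± 0.22 with serine. Cdc25b, a phosphatase that switches on Cdk1, was at -4.27 ± 0.31 and -3.67 ± 0.29, with 28 counts with LPS against 839 untreated without serine and 42 against 808 with serine. Kif23, a motor of cytokinesis, fell by 3.16 ± 0.50 and 2.59 ± 0.47 (by 3.24 without LPS replicate 2 in serine medium), Kif2c by 2.89 ± 0.74 without serine and Cenpf by 2.60 ± 0.85 with serine. Cenpf had 6 counts with LPS against 58 untreated in that medium and was not called without replicate number 1 or 3 (0.0542 and 0.08), and Kif2c 4 against 48 without serine.

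**Figure D5:**
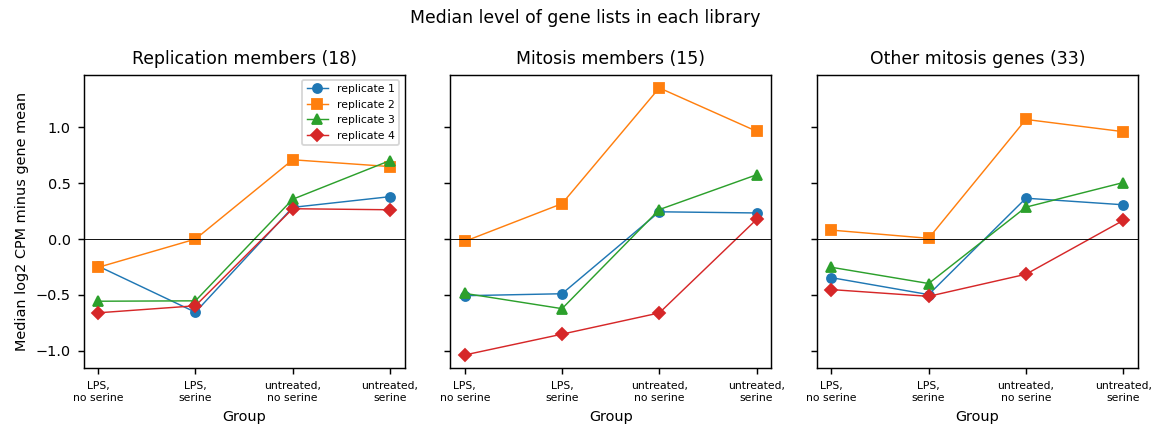
Median level of a gene list in each library (vertical axis, log2 CPM minus the gene's mean) by group (horizontal axis), with lines joining libraries that carry the same replicate number. Replication members, mitosis members and other mitosis genes are lower with LPS, and replicate 2 lies highest in most groups of the mitosis lists.

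Among 30 other regulators of G1, 9 were lower in each medium and 10 (without serine) or 12 (with serine) higher, with medians of 0.15 and -0.02. These shares are near those of all tested genes, 29.7% and 28.2% lower and 27.1% and 27.6% higher (without and with serine). Ccnd2, the third D cyclin, rose to 131, 172, 222 and 165 CPM with LPS without serine, against 1.43, 3.07, 1.92 and 0.675 untreated (6.46 ± 0.41), and to 198, 213, 259 and 196 with LPS and serine, against 1.31, 3.69, 2.14 and 0.278 (6.81 ± 0.40, or 7.39 without untreated replicate 2). Cdkn1a, which encodes the inhibitor p21, rose by 3.34 ± 0.16 and 3.79 ± 0.17, and Rbl1, the p107 relative of the retinoblastoma protein, by 3.23 ± 0.25 and 2.95 ± 0.25. E2f2 fell to 1.22, 1.21, 1.68 and 1.75 CPM with LPS without serine, against 30.3, 32.7, 28.1 and 27.7 untreated (-4.34 ± 0.24), and by 5.06 ± 0.25 with serine. Tfdp2, an E2F partner, fell by 1.89 ± 0.25 and 2.24 ± 0.25, the inhibitor gene Cdkn2c by 1.62 ± 0.26 without serine and Skp2, which marks p27 for destruction, by 1.53 ± 0.22 with serine.

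Removing serine was compared within untreated and within LPS-treated cells. In untreated cells no member was called in either direction, as was no gene of the series (0% of genes). With an unadjusted p under 0.05 edgeR's unpaired test gave 0 of 37, beside 436 genes higher and 112 lower of 11004. The replicate block gave 1 member, lower, beside 432 and 253 genes. Past the adjusted threshold the DESeq2 Wald test and the replicate block also called 0 of 37. DESeq2 called 0.109% of all genes higher and 0.00909% lower, and the block 0.0818% and 0%. The median log2 fold change was -0.08, with 26 of 37 negative. The extremes were Bub1 at 0.76 ± 0.49, Birc5 at 0.65 ± 0.49 and Gins1 at 0.25 ± 0.33, and Ccnd1 at -0.69 ± 0.41, Uhrf1 at -0.53 ± 0.37 and Pole at -0.37 ± 0.43 (adjusted p = 0.816 to 0.874). The positive value of Gins1 came from replicate 4 without serine at 8.43 CPM, and without that library it was -0.13. Ccnd1 was lower without serine in each of the 4 same-numbered pairs. In all, 6 of 37 members were lower in each pair and 1 was higher. The share of all genes that did so was not counted. The groups overlapped for all 37 tested members, while over all genes 1.46% were higher and 1.32% lower without overlap. The median standard error was 0.325, and log2 changes well above that size could also go uncalled, as did Bub1 at 0.76 ± 0.49.

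In LPS-treated cells Cdt1 had the highest fold change with serine removed. It was at 43.2, 79.2, 60.7 and 72.5 CPM without serine, against 20.8, 49.6, 38.4 and 38.3 with serine, higher in 4 of 4 same-numbered pairs although the groups overlapped. The fold change was 0.80 ± 0.22, which missed the threshold in the unpaired model (adjusted p = 0.276) and passed it with the replicate block (0.81 ± 0.16, 0.0354). Cdt1 was the only 1 of 37 called with the block, beside 0.663% of all genes called higher and 0.227% lower, and 0 members were called without it, beside 0.0545% and 0.00909%. With an unadjusted p under 0.05 the unpaired model gave 1 of 37, higher, beside 410 genes higher and 266 lower of 11004. The block gave 2 members higher and 1 lower, beside 566 and 413 genes. DESeq2's Wald test called 0 of 37, beside 0.663% of all genes higher and 0.164% lower. Aurkb (0.67 ± 0.56) and Kif11 (0.60 ± 0.50) were the next highest, and Birc5 (-1.21 ± 0.67), Ccnb1 (-0.89 ± 0.70) and Plk1 (-0.80 ± 0.98) the lowest. Birc5 and Ccnb1 were lower without serine in 4 of 4 pairs, as were 6 of 37 members in all, while 4 were higher. The share of all genes that did so was not counted. Plk1 was at 0.34 without LPS replicate 2 with serine. Mcm2 was the member whose groups did not overlap, at 4.11 to 6.59 CPM without serine against 3.23 to 3.72 with serine (0.53 ± 0.27, adjusted p = 0.854), beside 4.27% of genes higher and 3.31% lower without overlap.

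The LPS response did not differ detectably between the media. In the test of the difference no member was called with or without the replicate block, as was no gene of the series (0%). At an unadjusted p under 0.05 edgeR's unpaired test gave 1 of 37, lower, beside 122 genes higher and 131 lower of 11004. The replicate block gave 2 members higher and 1 lower, beside 242 and 223 genes. DESeq2's Wald test called 0 of 37, beside 0.00909% of all genes higher and 0% lower. The difference, response without serine minus response with serine, was highest for Aurkb (0.93 ± 0.65), Kif11 (0.77 ± 0.63) and Mcm2 (0.73 ± 0.35), and lowest for Birc5 (-1.87 ± 0.84), Bub1 (-1.15 ± 0.88) and Ccnb1 (-0.97 ± 0.83), each with adjusted p = 0.95 in edgeR's test. The difference was above 0 for Mcm2 and below 0 for Birc5 in 4 of 4 same-numbered sets. In all, 3 of 37 members were above 0 and 2 below 0 in each set. The share of all genes that did so was not counted. A member called in 1 medium and not in the other, such as Kif11, Birc5, Bub1 or Cdt1, was therefore not shown to differ between them.

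Differences between replicate numbers were also tested. An F test for the number, across all groups, called 7 of 37 members, beside 7.20% of all genes: Pole, Top2a, Bub1, Ccna2, Ccnb2, Plk1 and Cdkn1b. Replicate 2 held the highest value of 7, 11, 13 and 12 of the 15 mitosis genes in LPS-treated cells without serine, LPS-treated cells with serine, untreated cells without serine and untreated cells with serine. Replicate 4 held the lowest value of 8, 10, 9 and 11. Of the 18 replication genes, replicate 2 held the highest value of 5, 11, 13 and 13 in the same order of groups. Replicate 4 held the lowest of 8, 7, 8 and 9. The share of all genes with such ranks was not counted. Averaged over groups on the log2 scale and centred within each group, Plk1 was 1.02 above its mean in replicate 2, Ccnb2 0.91, Ccna2 0.88, Bub1 0.83, Pole 0.78 and Top2a 0.77. Cdkn1b ran the other way, 0.50 above its mean in replicate 1, the male libraries, and at -0.37 in replicate 2. Leaving out replicate 4 of the untreated cells without serine raised the count to 19 members, leaving out replicate 2 of that group gave 4, and leaving out replicate number 1 gave 1. The share of all genes called in those fits was not counted, so these counts show nothing particular to the members.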

How the data were processed

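RNA was sequenced from 16 libraries of bone marrow-derived macrophages, 4 in each of 4 groups. The authors deposited a table of raw read counts, 1 row for each Ensembl gene, with the length of each gene. The submitters' processing notes name mm10 as the genome build and list Trimmomatic 0.33, HTSeq, STAR, SAMtools and edgeR without saying what each did. The deposited table holds 24 further per-sample columns, which were left out of every step. Of 43430 IDs, 42462 had a symbol. The library kit named in the labels does not mark strand.

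Tests used edgeR 4.0.16 (limma 3.58.1, R 4.3.3). The default filter of edgeR on low counts left 11004 genes, libraries were scaled by TMM, and edgeR's quasi-likelihood fit (robust) took all 16 libraries together, each group having its own mean (common dispersion 0.0438, a biological coefficient of variation of 20.9%). SEs were derived from the log2 fold change and its F statistic. Tests were two-sided, Benjamini-Hochberg adjustment ran over all tested genes, and the threshold was 0.05. CPM values are TMM-scaled, RPKM divides them by the deposited gene length, and centred log2 CPM uses a prior count of 2. The steps were tested on simulated counts. No 2 libraries were copies: of 120 pairs compared by chi-square over genes, none had a statistic per degree of freedom under 2.04.

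Alternatives were DESeq2 size factors, total-count scaling, the DESeq2 1.42.0 Wald test, no filter, only the groups compared, a block for the replicate number, and leaving out each library or each replicate number. The labels give the same numbers to every group without saying that they mark an animal or day. Deviations from the group means of same-numbered libraries correlated across genes at 0.217 to 0.415 and 0.125 to 0.397 for LPS with and without serine, and at 0.185 to 0.609 and 0.333 to 0.66 for serine withdrawal in untreated and LPS-treated cells, while those of differently numbered libraries lay between -0.373 and 0.141. Within each comparison every same-numbered pair correlated more than any differently numbered pair, so the numbers were taken to pair the samples. The main calls are still those of the model without the block, and the block is given where it changes a call.

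The members, the lists of other genes and the rule for naming genes were chosen with earlier results of these data known. All 39 members may be named. Of the other lists, the 3 called genes with the highest and the 3 with the lowest log2 fold change in each LPS comparison were named, and in the serine comparisons the called members or otherwise the 3 highest and 3 lowest. Other members singled out there, such as Mcm2 and Ccnd1, were chosen after their values were seen. Of 38 other replication genes 37 matched a row and 35 were tested, of 38 other mitosis genes 33 were tested and of 33 other G1 regulators 30. Promoter windows are from RefSeq on GRCm38.p6, and exon overlaps from GENCODE.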

Additional observations from a re-analysis of the deposited data

Results flagged for a closer look

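In groups of 4 libraries, a library was singled out where its gap to the nearest of the others divided by the group's range was above Dixon's 95% critical value. Of 148 groups of values, 37 members in 4 groups, 10 had such a library, and chance gives about 1 in 20. Replicate 2 accounted for 7 of the 10. In LPS-treated cells with serine it was high for Top2a at 14.7 CPM, Ccnb2 at 3.63, Pole at 2.42 and Plk1 at 2.07. Ccna2 was high in replicate 2 both with LPS, at 2.43 CPM, and untreated, at 9.40, in cells without serine. Birc5 was high in replicate 2 of untreated cells with serine, at 3.48 CPM. The other three were Gins1 in replicate 4 of untreated cells without serine at 8.43 CPM, Plk1 in replicate 1 of LPS-treated cells without serine at 0.609, and Cdkn1b in replicate 1 of untreated cells with serine at 59.7. Gins1 stood in the library of the lowest total (2871477 counts), and the part of depth in these values was not tested.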

How the results depend on the processing

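Of 106 results on single genes, 77 kept their direction and their side of the threshold under every alternative run; over all alternatives 2717 values kept both, 46 gained the threshold, 70 lost it and 4 turned round. Total-count scaling lowered the median of all genes to -0.64 and -0.69 (with and without serine). Members called lower then numbered 30 and 33, beside 58.2% and 59.7% of all tested genes. Members called higher numbered 1 and 1, beside 15.1% and 15.3%. The share of higher calls among all called genes was 20.6% and 20.4%, beside 49.5% and 47.7% with TMM. With the replicate block, 24 members were lower and 2 higher in either medium. In LPS-treated cells 1 member was higher without serine, beside 0.663% of all genes higher and 0.227% lower. Without replicate 4 of untreated cells without serine the block again gave 1 member higher, beside 4.98% of all genes higher and 3.32% lower. That fit called 0.63% of genes higher and 0.081% lower for withdrawal in untreated cells, and 0.036% each way for the difference. Leaving out single libraries or replicate numbers gave 1 to 2 members higher and 14 to 22 lower for LPS in serine medium, and 2 and 16 to 22 without serine. Over all tested genes 22.6% to 33.1% were higher and 21.4% to 33.9% lower in these fits with serine. The shares without serine were 22.9% to 31.3% and 22.5% to 32.1%. Members called by the replicate number ranged from 1 to 19 with libraries left out, and the count was 19 without replicate 4 of untreated cells without serine. The share of all genes called by the number in those fits was not counted. For serine withdrawal, Gins1 in untreated cells ranged from -0.13 (without that library) to 0.46 with single libraries left out, was -0.10 without replicate number 4 and was -0.085 in the block fit without that library, and Plk1 in LPS-treated cells ranged from -1.33 to 0.34, the upper value without replicate 2 with LPS and serine. The cause was not tested. Pcna, Gins1 and Ccnd3, none of them called, changed sign in serine medium under total-count scaling, and Gins2 with DESeq2 size factors. Cdc45 lost its call without serine when genes of low counts were kept (adjusted p = 0.0632). The block changed no member's call in untreated cells or in the difference. The fit on the compared groups alone was not run for the difference, and it and the DESeq2 Wald test were not run for the replicate number, whose model holds the number as its tested term and so has no separate block fit. Depth limits genes of few counts: Cdc6 and Chek1 could not be tested, and Ccnb1, Plk1, Cdc20, Aurkb and Bub1 had 10 to 21 counts over the 4 libraries of an LPS group.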
